A study of Homo sapiens with 6 samples.

Results

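The adrenergic core transcription factors are the regulators that specify and hold the sympathoadrenal identity of neuroblastoma cells, and 8 of them were examined here: PHOX2A, HAND2, GATA2, GATA3, ISL1, TBX2, INSM1 and MYCN. They were taken by gene symbol and not by a cut on measured values, although earlier results of these data were known. All 8 were found among the 60676 gene identifiers in the deposited tables. Of these 8 factors, 7 were among the 13966 genes tested, which had a mean of at least 1 FPKM (a fragment count scaled by gene length and by the library total) in either group, and INSM1 was not. The libraries came from the human neuroblastoma line SK-N-BE, exposed for 1.5 days to differentiation medium with 10 µM retinoic acid after siRNA transfection. In 3 libraries (si-CyCoNP) a pool of siRNAs was directed against CyCoNP, a cytoplasmic long noncoding RNA transcribed from LINC02381, and in 3 libraries (si-SCR) a scrambled siRNA was used. All 6 libraries were therefore from 1 cell line at 1 time point of retinoic acid exposure, and no undifferentiated sample was compared. The comparison asked how the adrenergic factors responded upon CyCoNP depletion. Since the labels do not say that the replicates came from separate cultures, the p-values measure the spread between these libraries.

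In sympathetic neuroblasts these factors form an interconnected circuit in which each binds enhancers of its own gene and of the others. The homeodomain factor PHOX2A and the basic helix-loop-helix factor HAND2 activate noradrenergic genes, the zinc finger factors GATA2 and GATA3 act with them, and the LIM homeodomain factor ISL1 and the T-box factor TBX2 are further parts of the circuit. INSM1 is a zinc finger repressor that promotes neuroendocrine and sympathoadrenal differentiation, and MYCN is the basic helix-loop-helix oncoprotein whose gene is amplified in many aggressive neuroblastomas and which dimerises with MAX to drive growth genes.

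In the GRCh38 annotation the factors lie on 8 chromosomes, all as protein-coding genes. PHOX2A (ENSG00000165462) is at chr11:72239077-72245664 on the minus strand, HAND2 (ENSG00000164107) at chr4:173524969-173530229 on the minus strand and GATA2 (ENSG00000179348) at chr3:128479427-128493201 on the minus strand. On the plus strand are GATA3 (ENSG00000107485) at chr10:8045378-8075198, ISL1 (ENSG00000016082) at chr5:51383448-51394730, TBX2 (ENSG00000121068) at chr17:61399843-61409466, INSM1 (ENSG00000173404) at chr20:20368104-20370949 and MYCN (ENSG00000134323) at chr2:15940550-15947007. No exon of a factor overlapped an exon of another gene on the same strand.

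The targeted RNA was examined first. The si-SCR libraries gave 274, 208 and 315 counts of LINC02381, whereas 20, 30 and 12 counts were left in si-CyCoNP, so that 7.30% of its level remained after scaling. The libraries held between 3762009 and 4799407 counts. Of 18 noradrenergic markers fixed as a list, 17 reached the level for testing. The Schwann cell and glial markers SOX10 and FOXD3 were at 0 counts in every library, as were 4 of the 8 genes of their list. Of 22 mesenchymal genes, 10 reached the level for testing, and 3, among them PRRX1, were at 0 in all libraries. The part of other cell types in the results for the adrenergic factors was not tested.

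Upon CyCoNP depletion, 5 of the 7 tested factors fell (PHOX2A, GATA2, TBX2, HAND2 and GATA3), MYCN rose, and ISL1 did not pass the test (edgeR quasi-likelihood test with Benjamini-Hochberg adjustment over all genes tested, adjusted p under 0.05). Over all tested genes, 14.2% passed as lower and 14.2% as higher in si-CyCoNP. PHOX2A and GATA2 fell by more than 1 on the log2 scale, a drop reached by 2.98% of tested genes, and none rose by more than 1, which 2.28% of genes did. The median log2 fold change of the 7 factors was -0.61, against 0.00 for all tested genes. In these bulk libraries, fewer cells that express a factor and less of its RNA per cell cannot be told apart.

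**Figure D1:**
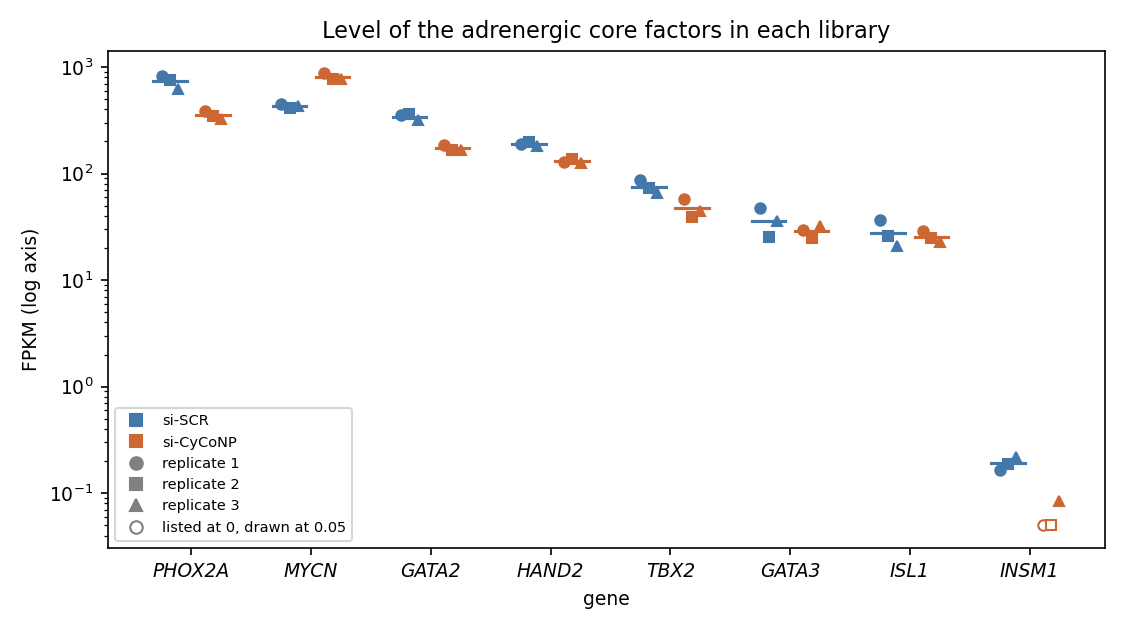
FPKM of each adrenergic core factor on a log axis, in the 3 si-SCR (blue) and 3 si-CyCoNP (orange) libraries, with a marker shape per replicate number and a bar at the mean where all 3 libraries have a value above 0. PHOX2A, GATA2, HAND2 and TBX2 lie lower and MYCN lies higher in si-CyCoNP without overlap, GATA3 and ISL1 overlap, and INSM1 stays at or below 0.220 FPKM.

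The order of the factors by mean FPKM, which is scaled by gene length, changed at the top only. In si-SCR libraries PHOX2A was the most abundant at 734 ± 98.3 FPKM (SD, n = 3), followed by MYCN at 428 ± 19.0, GATA2 at 342 ± 22.6, HAND2 at 190.1 ± 7.43, TBX2 at 75.3 ± 11.3, GATA3 at 36.2 ± 10.97, ISL1 at 27.7 ± 8.08 and INSM1 at 0.190 ± 0.029. In si-CyCoNP libraries MYCN came first at 806 ± 57.7 FPKM, ahead of PHOX2A at 352 ± 28.5, and the factors below them kept their order: GATA2 at 172 ± 9.95, HAND2 at 130.1 ± 5.56, TBX2 at 47.3 ± 9.61, GATA3 at 28.8 ± 3.47 and ISL1 at 25.5 ± 3.04. GATA3 and ISL1 overlapped in both groups and cannot be ordered, whereas every other pair of neighbours was apart in all libraries of a group. PHOX2A and MYCN were among the most abundant transcripts of the cells, with mean si-SCR levels at the 99.8th and 99.6th percentiles of tested genes.

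PHOX2A, the homeodomain factor that activates the dopamine beta-hydroxylase gene, had the lowest estimate of the 7 factors, close to that of GATA2. It stood at 819, 757 and 627 FPKM in si-SCR replicates 1, 2 and 3 and at 383, 345 and 328 FPKM in si-CyCoNP replicates 1, 2 and 3. The highest si-CyCoNP library was well below the lowest si-SCR library, which was replicate 3. Its log2 fold change, fitted on the counts, was -1.13 ± 0.093 (SE, 95% interval -1.32 to -0.94, adjusted p = 4.49e-10, edgeR), so that 45.7% of the level remained. PHOX2A was one of the genes that the study itself picked from those lowered in these libraries, and its direction is therefore not independent evidence. By RT-qPCR the study also reported it as lower in SK-N-BE cells given siRNA against NCAM1, a different depletion.

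HAND2, which pairs with E proteins to bind E-box motifs, fell less. It stood at 189.5, 198 and 183 FPKM in si-SCR replicates 1, 2 and 3 and at 128, 136 and 126 FPKM in si-CyCoNP. Its spread within each group was narrow, with a coefficient of variation of 5.54% and 3.38%, and the groups did not overlap. On the log2 scale the change was -0.61 ± 0.076 (SE, 95% interval -0.77 to -0.46, adjusted p = 4.97e-07, edgeR), and 65.3% of the level remained.

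HAND2 shares its promoter region with HAND2-AS1, a long noncoding RNA read from the opposite strand, so both transcripts were followed together. Between the HAND2 start and an annotated start of HAND2-AS1 lies a GATA motif (AGATAA, searched on both strands, in capitals), shown here because HAND2, its antisense partner and GATA2 all fell. The stretch is at chr4:173530386-173530411 (GRCh38) and is given from the RefSeq promoter sequences on the strand of each gene:
HAND2, minus strand, motif at 172 bases before the start: caagttttaaTTATCTtatggttatg
HAND2-AS1, plus strand, motif at 62 bases before the start: cataaccataAGATAAttaaaacttg
Of 35116 RefSeq promoter windows, which run from 250 bases before to 50 bases after a start, 10.3% held this motif. A match describes the sequence and is no evidence of binding. The part of GATA2 in the change of HAND2 or HAND2-AS1 was not tested.

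HAND2-AS1 fell along with HAND2. It stood at 28.9, 30.4 and 25.4 FPKM in si-SCR replicates 1, 2 and 3 and at 17.3, 16.01 and 15.5 FPKM in si-CyCoNP. As for HAND2, no si-CyCoNP library reached the lowest si-SCR library. This was a log2 fold change of -0.86 ± 0.085 (SE, 95% interval -1.04 to -0.69, adjusted p = 1.10e-08, edgeR). The exons of the pair overlap on opposite strands over 867 bases, which is 24.1% of the annotated HAND2 exon bases. The libraries were made with a stranded kit, and the deposited counts carried strand information: a count was given to 7.28% of the genes contained in same-strand exons of another gene, against 29.6% of the genes contained in opposite-strand exons.

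GATA2 and GATA3, zinc finger factors that bind the same GATA motif, started at very different levels and changed to different extents. GATA2 stood at 351, 359 and 316 FPKM in si-SCR replicates 1, 2 and 3 and at 183, 166 and 166 FPKM in si-CyCoNP. The groups were far apart relative to their spread. It changed by a log2 fold change of -1.06 ± 0.080 (SE, 95% interval -1.22 to -0.90, adjusted p = 9.24e-11, edgeR), with 47.9% of the level remaining.

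GATA3 was read less securely. It stood at 47.4, 25.4 and 35.9 FPKM in si-SCR replicates 1, 2 and 3 and at 29.3, 25.1 and 32.0 FPKM in si-CyCoNP. The groups overlapped: si-SCR replicate 2 was below 2 of the si-CyCoNP libraries, while si-SCR replicates 1 and 3 were above all of them. GATA3 passed the test at a log2 fold change of -0.40 ± 0.141 (SE, 95% interval -0.69 to -0.12, adjusted p = 0.0317, edgeR), but the value was -0.15 with an adjusted p of 0.385 without si-SCR replicate 1 and -0.31 with an adjusted p of 0.179 without si-CyCoNP replicate 2. DESeq2 on all 6 libraries gave -0.41 ± 0.280 (SE) with an adjusted p of 0.315. The level of GATA2 relative to GATA3 in the same library was 10.1 ± 3.54 (SD, n = 3) in si-SCR and 6.03 ± 0.738 in si-CyCoNP, a ratio of FPKM values that does not depend on how the libraries were scaled. The highest si-CyCoNP ratio, 6.62, lay below the lowest si-SCR ratio, 7.41.

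The antisense RNA of GATA2 went against its partner. GATA2-AS1 is read from the opposite strand, and it stood at 18.03, 20.8 and 22.5 FPKM in si-SCR replicates 1, 2 and 3 and at 35.5, 30.9 and 32.0 FPKM in si-CyCoNP. All si-CyCoNP libraries were above all si-SCR libraries, which is the reverse of GATA2. The fit gave a log2 fold change of 0.62 ± 0.104 (SE, 95% interval 0.41 to 0.83, adjusted p = 4.10e-05, edgeR). The exons of the pair overlap over 78 bases, or 1.59% of the GATA2 exon bases. GATA3-AS1, on the strand opposite to GATA3, stood between 1.57 and 4.76 FPKM in si-SCR and between 3.97 and 5.01 FPKM in si-CyCoNP and did not pass the test (adjusted p = 0.594, edgeR).

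TBX2, a T-box factor that mostly represses transcription, fell. It stood at 87.6, 72.8 and 65.5 FPKM in si-SCR replicates 1, 2 and 3 and at 58.0, 39.3 and 44.8 FPKM in si-CyCoNP. The groups did not overlap, although si-CyCoNP replicate 1 came close to si-SCR replicate 3. The fit gave a log2 fold change of -0.74 ± 0.114 (SE, 95% interval -0.97 to -0.50, adjusted p = 1.38e-05, edgeR), with 60.0% of the level remaining. TBX2-AS1 did not pass the test at -0.28 ± 0.180 (SE, adjusted p = 0.269, edgeR), and its libraries ranged from 13.7 to 21.0 FPKM in si-SCR and from 14.3 to 16.8 FPKM in si-CyCoNP. Without si-SCR replicate 3 it passed at -0.47 (adjusted p = 0.0392).

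Without overlap between the groups, 4 of the 7 tested factors were lower (PHOX2A, HAND2, GATA2 and TBX2) and 1 was higher (MYCN). Among all tested genes, 16.1% were lower and 24.2% higher without overlap in FPKM. In all 4 lower factors the lowest si-SCR library was replicate 3. Without si-SCR replicate 3 the log2 fold change of PHOX2A was -1.25, that of GATA2 was -1.13 and that of HAND2 was -0.66, and these 4 factors passed in every comparison that left out 1 library.

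**Figure D2:**
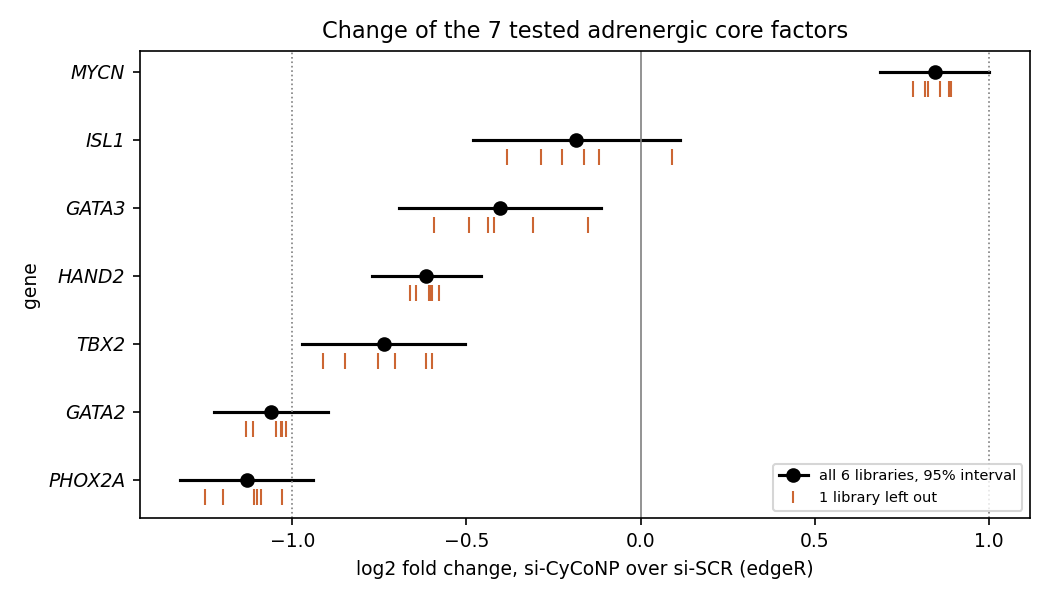
Log2 fold change of the 7 tested factors, si-CyCoNP over si-SCR, from edgeR with all 6 libraries (black point, bar for the 95% interval), and with 1 library left out (orange ticks, 6 per gene). PHOX2A, GATA2, TBX2 and HAND2 stay below 0 and MYCN stays above 0 in each of them, whereas the values of ISL1 spread from -0.38 to 0.09.

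ISL1, a LIM homeodomain factor also used by motor neurons, was not called. It stood at 36.5, 25.8 and 20.7 FPKM in si-SCR replicates 1, 2 and 3 and at 28.8, 24.9 and 22.8 FPKM in si-CyCoNP. The si-SCR libraries lay on both sides of all si-CyCoNP libraries, so the spread between replicates was larger than the difference between the groups. The log2 fold change was -0.18 ± 0.145 (SE, adjusted p = 0.381, edgeR), and its 95% interval, -0.48 to 0.11, leaves room for a drop of the size seen for GATA3. The estimate rested on single si-SCR libraries: it was 0.09 (adjusted p = 0.659) without replicate 1 and -0.38 (adjusted p = 0.0028) without replicate 3. ISL1-DT, a noncoding RNA that starts 116 bases from ISL1 on the other strand, stood between 1.64 and 2.34 FPKM in si-SCR and between 1.69 and 2.83 FPKM in si-CyCoNP and did not pass the test (adjusted p = 0.959, edgeR). The 2 genes also have a GATA motif between them, at chr5:51383407-51383432 (GRCh38, RefSeq, plus strand, 31 bases before the ISL1 start), shown for comparison with the HAND2 stretch above:
ISL1: tttgagtaagAGATAAggaagagagg

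INSM1 was close to the limit of detection in these cells. It had 2, 2 and 3 counts in si-SCR replicates 1, 2 and 3 and 0, 0 and 1 counts in si-CyCoNP. Every library was at or under a floor of 3 counts, so neither a fold nor a test is given, and a difference was not detectable at this depth. Its relative INSM2 stood at 30.5, 29.3 and 19.1 FPKM in si-SCR and at 27.0, 37.4 and 31.3 FPKM in si-CyCoNP. INSM2 did not pass the test (log2 fold change 0.21 ± 0.138 SE, adjusted p = 0.285, edgeR), although it passed at 0.35 (adjusted p = 0.0433) without si-SCR replicate 1 and was at 0.00 (adjusted p = 0.996) without si-SCR replicate 3.

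MYCN moved in the opposite direction to the 5 factors that fell. It stood at 446, 408 and 429.8 FPKM in si-SCR replicates 1, 2 and 3 and at 872, 766 and 779 FPKM in si-CyCoNP. The lowest si-CyCoNP library was far above the highest si-SCR library. On the log2 scale it rose by 0.84 ± 0.076 (SE, 95% interval 0.69 to 1.00, adjusted p = 2.65e-09, edgeR), a 1.80-fold rise, and leaving out 1 library at a time gave 0.78 to 0.89.

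Because MYCN rose while PHOX2A fell, their balance within a library shifted. The ratio of MYCN to PHOX2A in FPKM was 0.545, 0.539 and 0.686 in si-SCR replicates 1, 2 and 3 and 2.27, 2.22 and 2.38 in si-CyCoNP. PHOX2A was the higher of the pair in all si-SCR libraries and MYCN in all si-CyCoNP libraries. The ratio of MYCN to HAND2 went from 2.26 ± 0.166 (SD, n = 3) to 6.20 ± 0.589, and that of PHOX2A to HAND2 went from 3.86 ± 0.450 to 2.71 ± 0.245. These ratios use 1 library at a time, so no scaling between libraries enters them.

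Genes next to MYCN on chromosome 2 were read to see whether they moved with it. MYCNOS, the antisense RNA that overlaps the first part of MYCN, stood at 4.47, 4.95 and 5.94 FPKM in si-SCR replicates 1, 2 and 3 and at 7.88, 6.37 and 7.09 FPKM in si-CyCoNP. The groups did not overlap, and the log2 fold change was 0.41 ± 0.141 (SE, adjusted p = 0.0308, edgeR), but the call was lost in 7 of 15 alternative analyses. Among these were DESeq2 and the comparisons without si-SCR replicates 1 or 2 or without si-CyCoNP replicates 1 or 3. Over all 15 the log2 fold change lay between 0.32 and 0.51. DDX1, an RNA helicase gene often amplified together with MYCN, stood between 69.4 and 76.8 FPKM in si-SCR and between 88.0 and 88.8 FPKM in si-CyCoNP. Its log2 fold change was 0.21 ± 0.079 (SE, adjusted p = 0.0424, edgeR), and the call was lost in 8 of 15 alternatives. These included DESeq2 and all comparisons without 1 library except that without si-SCR replicate 1. The range of DDX1 over all 15 was from 0.19 to 0.28. NBAS and GACAT3 did not pass (log2 fold changes -0.03 and 0.26, adjusted p = 0.897 and 0.548, edgeR), MYCNUT was at 0 counts in every library and CYRIA was too low to test. The change of MYCN was thus larger than that of any tested neighbour, as a comparison of estimates without a test of the difference.

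**Figure D3:**
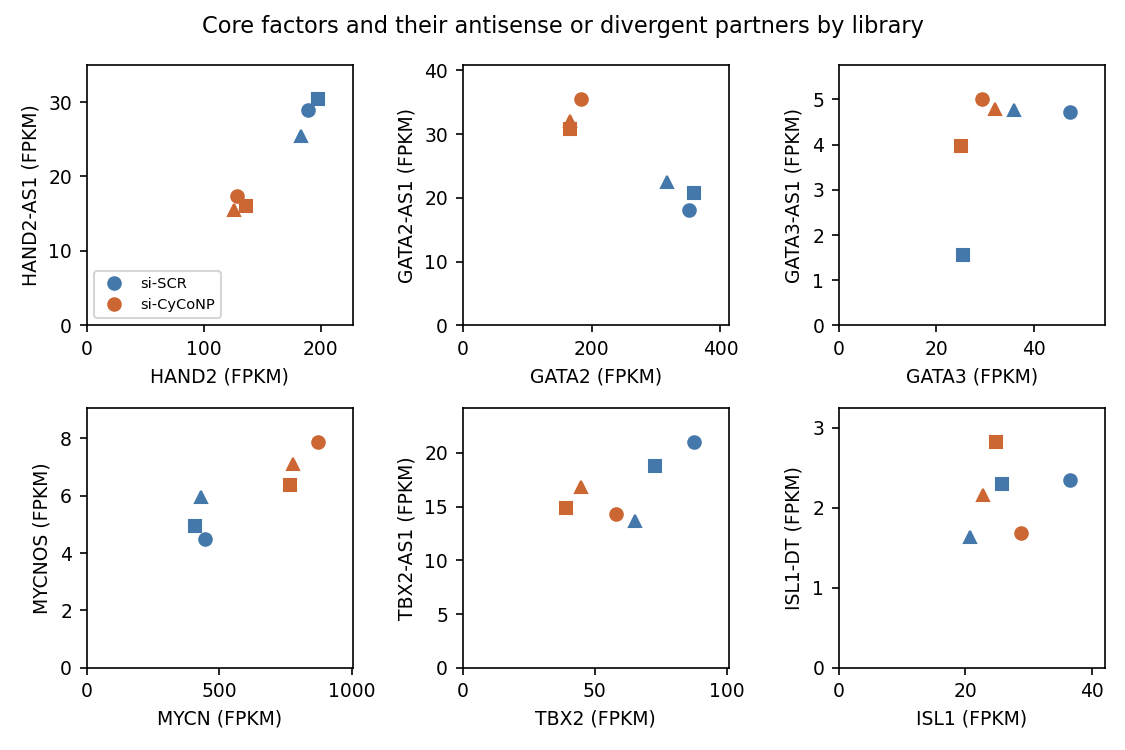
FPKM of 6 antisense or divergent partner RNAs (vertical axes) against the core factor at the same locus (horizontal axes) in each library, blue for si-SCR and orange for si-CyCoNP, with circles, squares and triangles for replicates 1, 2 and 3. HAND2 and HAND2-AS1 are both lower in si-CyCoNP, GATA2 and GATA2-AS1 move in opposite directions, MYCN and MYCNOS are both higher, and the groups overlap for the partners of GATA3, TBX2 and ISL1.

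The promoters of MYCN and GATA3 held other motifs that factors of this circuit can bind. MYCN had a match to CATCTG, an E-box bound by HAND and TWIST dimers, within the first transcribed bases, and 14.7% of promoter windows hold that motif. A RefSeq start of GATA3 lies inside its gene span given above and also inside the span of GATA3-AS1. At 64 bases before that start, GATA3 had a match to CACGTG, the E-box of MYC and MAX dimers, which 7.26% of windows hold. Both were searched on both strands and are given from RefSeq on GRCh38, plus strand, at chr2:15940553-15940578 and chr10:8051162-8051187, with the motif in capitals:
MYCN: ctgtgacagtCATCTGtctggacgcg
GATA3: gagggacttgCACGTGggcatgtgtt
The 6 factors read in this way were PHOX2A, HAND2, GATA2, GATA3, ISL1 and MYCN. Their partner RNAs were searched as well, and CATCTG also matched in windows of HAND2-AS1 and MYCNOS.

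The other members of the factors' families were mostly low or not called. For all tested genes the share that passed was 14.2% in each direction. Of 12 family members, 5 were tested and 1 fell: HAND1, the paralogue of HAND2, at 127, 109.5 and 161 FPKM in si-SCR replicates 1, 2 and 3 and at 99.8, 101 and 112 FPKM in si-CyCoNP. The groups of HAND1 overlapped, since si-CyCoNP replicate 3 was above si-SCR replicate 2, and the log2 fold change was -0.41 ± 0.101 (SE, adjusted p = 0.0026, edgeR), a call lost with limma on log2(FPKM + 1) or log2(FPKM + 0.1) (adjusted p = 0.149 and 0.145). TBX3, the paralogue of TBX2, stood between 78.1 and 107 FPKM in si-SCR and between 97.5 and 118 FPKM in si-CyCoNP and did not pass (0.19 ± 0.101 SE, adjusted p = 0.186, edgeR). It passed as higher with library totals alone (0.26, adjusted p = 0.0472) and without si-SCR replicate 1 (0.36, adjusted p = 0.0017), and 2 family members passed as higher without that library. GATA4 and GATA6 did not pass either (-0.09 and -0.20, adjusted p = 0.499 and 0.717, edgeR). MYC and MYCL stayed at or below 0.420 FPKM in every library, so MYCN was the only MYC family gene with a level that could be tested.

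RNAs of the proteins that the factors bind changed in both directions, and protein levels were not measured. Of 16 binding partners and cofactors, 14 were tested, 6 rose and 5 fell, with a median log2 fold change of 0.12. Among all tested genes, 14.2% passed as higher and 14.2% as lower. Among the genes of E proteins that pair with HAND2, TCF3 rose (0.84 ± 0.094 SE, adjusted p = 8.68e-08, edgeR), from between 14.7 and 19.4 to between 31.4 and 34.8 FPKM. TCF4 and TCF12 fell, by 0.47 and 0.37 on the log2 scale (adjusted p = 0.00048 and 0.0027, edgeR), calls lost with limma at either pseudocount, where 2 rather than 5 genes of the list were lower. MAX, the partner of MYCN, rose (0.41 ± 0.108 SE, adjusted p = 0.0044, edgeR), from 7.48, 8.58 and 7.62 to 10.6, 11.2 and 11.2 FPKM. Its level stayed far below that of MYCN, which had 806 FPKM in si-CyCoNP.

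Cofactors of the GATA and LIM homeodomain factors followed. ZFPM2, a zinc finger protein that binds GATA factors, fell by 1.07 on the log2 scale (adjusted p = 0.00016, edgeR) from between 2.24 and 2.84 to between 0.960 and 1.45 FPKM. ZFPM1 fell by 0.30 (adjusted p = 0.0496, edgeR), a call lost in 10 of 15 alternatives, among them DESeq2 and those without si-SCR replicates 1 or 2 or si-CyCoNP replicates 2 or 3, in the range from -0.46 to -0.19 over all 15. LDB1, the adaptor of LIM factors such as ISL1, rose (0.50 ± 0.090 SE, adjusted p = 9.91e-05, edgeR), and LMO2, a LIM-only protein that bridges GATA and E proteins, rose from 6, 7 and 9 counts to 17, 28 and 26 counts (1.58 ± 0.403 SE, adjusted p = 0.0038, edgeR). LMO2 reached the level for testing in si-CyCoNP only (mean 1.89 FPKM, against 0.592 in si-SCR). Its place among the genes that rose rests on that group. LDB2, LMO4 and HDAC2 did not pass (adjusted p = 0.0742, 0.993 and 0.726, edgeR), although LDB2 passed as higher without si-SCR replicate 3 (0.64, adjusted p = 0.0077) or si-CyCoNP replicate 1 (0.71, adjusted p = 0.0054), and LMO1 and LMO3 were too low to test. Of the genes for corepressor proteins recruited by INSM1 and other factors, HDAC1 rose by 0.65 and KDM1A by 0.24 (adjusted p = 0.00037 and 0.0399, edgeR). The KDM1A call was lost in 6 of 15 alternatives, DESeq2 and all those without 1 library except si-SCR replicate 1, at 0.18 to 0.27. RCOR1 fell by 0.70 (adjusted p = 1.36e-06, edgeR).

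Other factors of the adrenergic state did not share 1 direction. In each direction, 14.2% of all tested genes passed. Of 12, 3 rose and 5 fell, at a median log2 fold change of -0.12, but only 2 fell with limma at either pseudocount, and the median was -0.25 without si-SCR replicate 3. HEY1, a Notch-responsive repressor, rose from between 21.5 and 27.3 to between 46.0 and 46.7 FPKM (0.85 ± 0.094 SE, adjusted p = 6.44e-08, edgeR). ZNF536, a zinc finger repressor of neuronal differentiation, fell (-0.79 ± 0.121 SE, adjusted p = 1.18e-05, edgeR). TFAP2B and DACH1 rose by 0.41 and 0.54 on the log2 scale (adjusted p = 0.00041 and 0.00104, edgeR). The drop of PHOX2A, GATA2, TBX2 and HAND2 was thus not seen in all factors of the state.

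Genes of the noradrenergic phenotype, several of which PHOX2A, HAND2 and GATA factors are known to activate, were mostly lower. Of 18, 17 were tested, 14 fell and 1 rose, at a median log2 fold change of -0.52. Over all tested genes, 14.2% passed as lower and 14.2% as higher. The calls of SLC6A2, SCG2 and DBH held in 7, 11 and 13 of 15 alternatives, and those of the others that fell held in all 15. GCH1, which makes the cofactor of tyrosine hydroxylase, fell deepest, from 28.2, 30.6 and 19.9 FPKM in si-SCR replicates 1, 2 and 3 to 3.70, 5.95 and 4.70 FPKM in si-CyCoNP (-2.52 ± 0.171 SE, adjusted p = 1.49e-11, edgeR). CYB561, a cytochrome of catecholamine vesicles, PRPH, an intermediate filament of peripheral neurons, and CHGB, a granule protein, fell by 1.14, 1.67 and 1.01 on the log2 scale (adjusted p = 3.20e-11, 6.16e-11 and 1.95e-09, edgeR). The genes that did not fall are named after their values were seen: TH, the rate-limiting enzyme of catecholamine synthesis (-0.13 ± 0.099 SE, adjusted p = 0.378, edgeR), NPY, a neuropeptide (0.09 ± 0.145 SE, adjusted p = 0.688, edgeR), and SLC18A2, a vesicular monoamine transporter, which rose (0.60 ± 0.159 SE, adjusted p = 0.0052, edgeR). PNMT was too low to test.

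Genes of the opposite, mesenchymal state showed no common direction. Of 22, 12 were too low to test, 4 rose and 3 fell, at a median log2 fold change of 0.14. The share of all tested genes that passed was 14.2% in each direction. FOSL1, 1 of the 4 that rose, reached the level for testing in si-CyCoNP only (mean 1.28 FPKM, against 0.152 in si-SCR). SMAD3, a TGF-beta signal transducer, rose from between 4.06 and 4.37 to between 9.51 and 9.96 FPKM (1.13 ± 0.105 SE, adjusted p = 4.71e-09, edgeR), and ID1, which sequesters E proteins, rose by 0.80 (adjusted p = 5.78e-05, edgeR). FOSL2 and SNAI2 fell by 1.12 and 1.27 on the log2 scale (adjusted p = 1.88e-07 and 9.76e-06, edgeR).

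**Figure D4:**
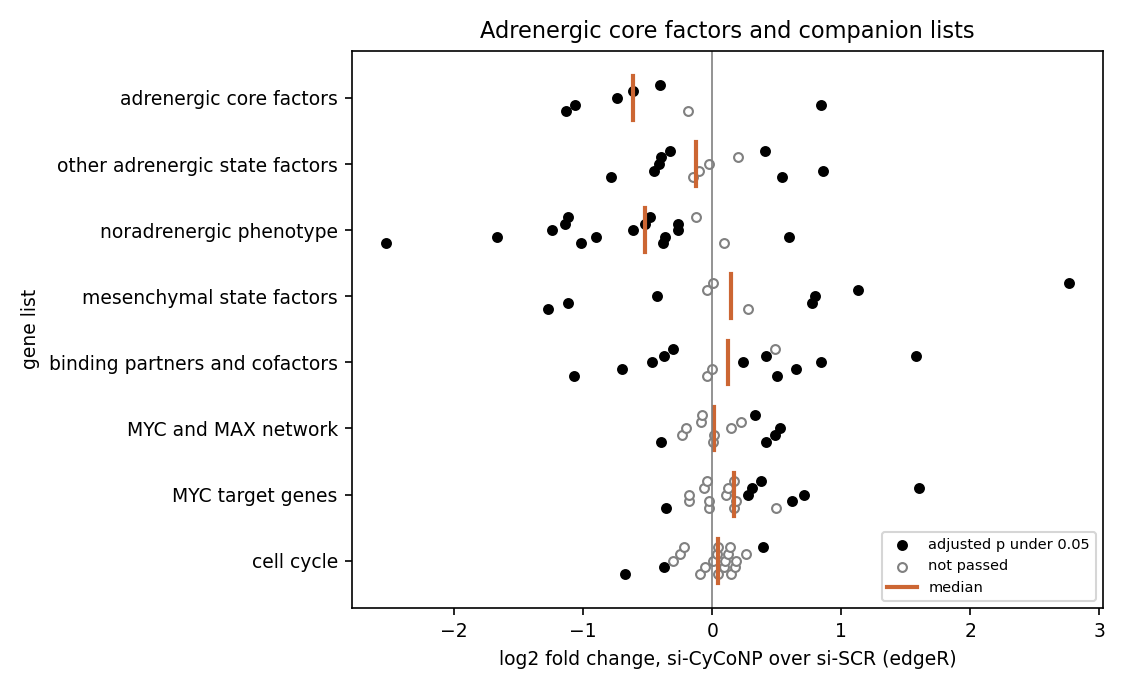
Log2 fold change (horizontal axis, si-CyCoNP over si-SCR, edgeR) of each tested gene in the core factors and 7 companion lists (vertical axis), filled where the adjusted p was under 0.05, with the median of each list in orange. The medians of the core factors (-0.61) and of the noradrenergic phenotype (-0.52) lie below 0, and those of the other lists lie between -0.12 and 0.17.

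Genes known as MYC targets were read beside the rise of MYCN. Of 20, 19 were tested, 6 rose, 1 fell and 12 did not pass, at a median log2 fold change of 0.17. By comparison, 14.2% of all tested genes passed as higher and 14.2% as lower. The count depended on the analysis: with the replicate number as a block, NPM1, MCM7 and LDHA also passed as higher and ODC1 as lower. With library totals alone, NPM1, MCM7 and CDK4 also passed as higher. Among those that rose, TFRC, CAD and NME1 kept their calls in 13, 13 and 10 of 15 alternatives. NOLC1, a nucleolar phosphoprotein, rose from 23.9, 23.6 and 32.3 FPKM in si-SCR replicates 1, 2 and 3 to 85.3, 81.5 and 88.0 FPKM in si-CyCoNP (1.61 ± 0.097 SE, adjusted p = 1.93e-12, edgeR). DKC1, which acts in ribosomal RNA modification, and PTMA, prothymosin alpha, rose by 0.71 and 0.62 (adjusted p = 1.07e-06 and 2.27e-06, edgeR), and SLC16A1, a lactate transporter, fell by 0.36 on the log2 scale (adjusted p = 0.00092, edgeR). In the MAX network, 13 of 15 genes were tested, 4 rose and 1 fell, at a median of 0.01: besides MAX, MLXIP and MNT, further basic helix-loop-helix proteins of the network, rose by 0.52 and 0.49 (adjusted p = 0.00016 and 0.0033, edgeR), and MXD4, a competitor of MYC proteins for MAX, fell by 0.40 (adjusted p = 0.0144, edgeR). The MXD4 call was lost in 4 of 15 alternatives, among them those without si-SCR replicate 2 (-0.30, adjusted p = 0.111) or si-CyCoNP replicate 2 (-0.35, adjusted p = 0.0725). FBXW7, the remaining gene of this list that rose (0.33, adjusted p = 0.0339, edgeR), kept its call in 7 of 15 alternatives and lost it with DESeq2 and limma.

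Since CyCoNP was studied for its contact with miR-4492, the 3' UTRs of the factors were searched for the complement of its seed. The mature sequence from RefSeq is given with the seed (bases 2 to 8) in capitals, and with it the single match (CCAGCCC, in capitals) found in the longest annotated 3' UTR of any of the 8 factors, that of GATA2 at chr3:128480912-128480932 (GRCh38, minus strand):
hsa-miR-4492: gGGGCUGGgcgcgcgcc
GATA2 3' UTR, match from base 94: actcctgCCAGCCCggctcgg
A match was present in 25.1% of tested protein-coding genes, whose longest 3' UTRs had a median of 1585 bases. It was present in 26.4% of those that fell, with a median of 1953 bases, and in 31.0% of those that rose, with a median of 1802 bases. Per kb of 3' UTR there were 0.182 matches over all tested protein-coding genes, 0.161 in those that fell and 0.212 in those that rose. The part of the miRNA in the change of any factor was not tested.

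The genes whose levels followed each factor most closely over the 6 libraries were listed as a description, by Pearson's r of log2 CPM (counts scaled by library total, with edgeR's TMM factors), and these values share the 2 groups and the library depth. For PHOX2A they were YWHAZ (r = 0.9998) and TTC8 (r = 0.9995), for HAND2 EEF1A2 (0.9996) and HSD17B10 (0.9994), for GATA2 LEPROTL1 (0.9988) and DUSP4 (0.9984), and for TBX2 TRO (0.9981) and TNFRSF10B (0.9958). MYCN was followed by MACROH2A2 (0.9978) and TLK2 (0.9969). ISL1, which did not pass, was nearest to TUBB3 (0.9944) and UBE2V1 (0.9860), and GATA3 to BAK1 (0.9933) and ENSG00000275910 (0.9931), a gene without a symbol. There were 37 to 91 genes above 0.99 for PHOX2A, HAND2, GATA2 and MYCN, but 1 to 5 for TBX2, GATA3 and ISL1. The latter also varied more between si-SCR replicates, with coefficients of variation of 16.9% to 31.2%, against 5.23% to 15.4% for the former. Such counts cannot be told apart from this spread.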

How the data were processed

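Total RNA of 6 SK-N-BE libraries was sequenced after rRNA depletion with a stranded kit. The authors trimmed reads (Trimmomatic 0.39, cutadapt 3.2), removed rRNA reads (Bowtie2 2.4.2), aligned to GRCh38 (STAR 2.7.7a) and counted uniquely mapping fragments per Ensembl gene with STAR. The deposited counts are raw, and the deposited FPKM values are scaled by gene length and library total. Symbols came from GENCODE on GRCh38 and matched 60357 of 60676 identifiers. Genes reaching 1 FPKM on average in si-SCR or in si-CyCoNP were tested on counts with edgeR 4.0.16 (R 4.3.3; quasi-likelihood, TMM, Benjamini-Hochberg); a gene passed at an adjusted p under 0.05. The precision is set by 3 libraries per group. Genes sharing reads with near-identical copies can be undercounted, since only unique fragments were counted. The factors, companion lists and tests were chosen with earlier results of these data known. Named genes were the 8 factors, LINC02381, genes at their loci, their family members and binding partners, at most 4 with the smallest adjusted p from each other list, and the 2 best correlated genes per factor. A few others are named for their direction, for unstable calls or for a level near the limit for testing, after their values were seen. Alternatives were other scalings and filters, a replicate block, each library left out, DESeq2 1.42.0, and limma 3.58.1 on log2(FPKM + 1) or log2(FPKM + 0.1). The edgeR script was tested on simulated data. Same-numbered replicates did not all correlate over 0.1, so they were not treated as pairs. Seed matches used the longest 3' UTR per gene in GENCODE, and promoters and the miRNA came from RefSeq. A result in the glial list and another in the interferon list are not reported here.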

Additional observations from a re-analysis of the deposited data

How the results depend on the processing

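PHOX2A, HAND2, GATA2, TBX2 and MYCN kept their direction and passed in all 15 alternatives, with log2 fold changes of -1.25 to -1.03, -0.66 to -0.54, -1.13 to -0.99, -0.91 to -0.60 and 0.78 to 0.91. GATA3 no longer passed with library totals alone (-0.34), the edgeR default filter (-0.41), DESeq2 (-0.41) and limma on log2(FPKM + 1) (-0.285) or log2(FPKM + 0.1) (-0.29), and ranged from -0.59 to -0.15 without 1 library. ISL1 ranged from -0.38, which passed, to 0.089, which reversed it, without 1 si-SCR library. Adding a log2 fold change beyond 1 left 2 lower factors and 0 higher ones. Over all genes, limma with a pseudocount of 1 or 0.1 passed 1118 or 1113 genes as lower, against 1990, and 1765 or 1753 as higher, against 1982. By more than 1 on the log2 scale, 180 or 292 were lower, against 416, and 207 or 323 higher, against 319. The causes were not tested.

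With the replicate number as a block, 5 factors were lower and 1 higher, as without it, and 2368 genes were lower and 2403 higher, against 1990 and 1982. Same-numbered libraries deviated together at r = 0.091, 0.073 and 0.108, and every library correlated best with its own number, a hint from the data and not from the design. The block changed no call of a factor, but it added calls in the companion lists. TBX3 and LDB2, which do not pass without it, passed as higher with it (0.20 and 0.48). So did MGA, NPM1, MCM7, LDHA and MKI67. Genes that passed as lower only with the block included ODC1, CCNB1 and CDC20. Without the block these genes did not pass with all 6 libraries. Depth limits INSM1, at 3 counts or fewer.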

Other observations

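Lists outside the circuit were read in the same fit, in which 14.2% of all tested genes passed as lower and 14.2% as higher. Of 20 cell cycle genes, 1 rose and 2 fell at a median log2 fold change of 0.04: E2F1, a regulator of S phase entry, rose by 0.39 (adjusted p = 0.0062, edgeR), and CDKN1B and CCNE2, a cyclin-dependent kinase inhibitor and a G1/S cyclin, fell by 0.38 and 0.68 on the log2 scale (adjusted p = 0.0053 and 0.0117, edgeR). Both calls were lost with limma at either pseudocount, CDKN1B also without si-CyCoNP replicate 1 (-0.29, adjusted p = 0.0587) and CCNE2 without si-CyCoNP replicate 2 (-0.55, adjusted p = 0.0728). Of 15 interferon response genes, 6 were tested, all with estimates below 0 at a median log2 fold change of -0.40, and 3 fell, among them OAS3, a sensor of double-stranded RNA, at -0.94 ± 0.109 (SE, adjusted p = 1.69e-07, edgeR) and EIF2AK2, a kinase activated by double-stranded RNA, at -0.31 (adjusted p = 0.0120, edgeR), the latter lost with library totals alone and with limma.

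Of 10 motor neuron factors, a lineage that also uses ISL1, 2 were tested: FOXP1 fell by 0.41 on the log2 scale (adjusted p = 0.0063, edgeR), a call lost with limma, and NKX6-1 did not pass (0.00 ± 0.125 SE, adjusted p = 0.993, edgeR). The remaining 8 were too low to test.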
